A study of Homo sapiens with 12 samples.

Results

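The 38 genes described here encode the enzymes that make cholesterol and fatty acids, the proteins that regulate them, and a few carriers of the products. They were taken by symbol from a pathway list and form 5 branches: 8 genes of the mevalonate branch, 13 of the sterol branch, 4 regulators, 10 of fatty acid and phospholipid synthesis, and 3 of sterol and fatty acid transport. All 38 were found among the 59611 gene symbols of the deposited count table, and 38 of 38 passed the filter on low counts, which left 15218 genes for testing. RNA was sequenced from 2 human B-cell acute lymphoblastic leukaemia lines, 697 and KOPN-8, grown in serum-containing medium. The edited 697 cells are clone BM_B and the edited KOPN-8 cells are clone BA. Both carry a guide RNA against SETD2, the methyltransferase that trimethylates histone H3 at lysine 36, and both are labelled as heterozygous SETD2 knockouts. The 697 and KOPN-8 controls carry an empty guide RNA vector and are labelled SETD2 wild type. Each of the 4 groups has 3 libraries, which the labels call biological replicates and describe no further. Because a line has 1 edited clone, the tests weigh a difference against library-to-library spread only, and effects of the edit and of clone selection cannot be told apart.

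Cholesterol synthesis starts from acetyl-CoA, which the mevalonate branch turns into isoprenoid units. The sterol branch condenses these to squalene, closes the rings and trims the product to cholesterol. Fatty acid synthesis draws on the same acetyl-CoA. Both routes are switched by the SREBP transcription factors, which SCAP carries to the Golgi when membrane sterols are low and INSIG proteins hold back in the endoplasmic reticulum when sterols are high. Released SREBPs act with NF-Y and SP1 at the promoters of these genes. Leukaemic cells in serum-containing medium can also take up cholesterol in lipoproteins.

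The libraries held between 10378769 and 18278662 counts, and 3 counts corresponded to between 0.159 and 0.292 CPM (counts scaled to a common library size, with edgeR's TMM factors). SETD2 itself measured 207, 211 and 238 CPM in edited 697 cells, against 156.5, 158 and 169 CPM in control 697 cells. It measured 161, 151 and 162 CPM in edited KOPN-8 cells, against 159, 171 and 177.5 CPM in control KOPN-8 cells. The SETD2 mRNA was thus higher in the edited 697 clone (log2 fold change 0.44, SE 0.0692, adjusted p = 0.000103, edgeR's quasi-likelihood test with Benjamini-Hochberg adjustment) and was not called in KOPN-8 (-0.10, adjusted p = 0.309). A gene-level count does not show whether the transcripts carry the edit. The 6 B-lineage markers examined were all detected, with summed levels of 1576 to 1726 CPM in edited and 1589 to 1758 CPM in control 697 cells, and of 2627 to 2676 CPM in edited and 2193 to 2275 CPM in control KOPN-8 cells. Of the 5 T and NK cell markers, CD3D, CD3E, CD3G and CD2 had no count in 697, and the list summed, through NKG7, to 8.68 to 12.2 CPM in edited and 3.86 to 5.20 CPM in control 697 cells. In KOPN-8 it summed to 56.1 to 65.1 CPM in edited and 53.3 to 57.4 CPM in control cells, again mostly NKG7. The myeloid list summed to at most 3.44 CPM and the erythroid and fibroblast list to at most 3.61 CPM in any library. In a bulk library, fewer expressing cells and less RNA per cell cannot be told apart.

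The promoters of these genes are shown first because the proteins that act on them bind short sequences near the start of transcription. A window from 250 bases before to 50 bases after the RefSeq start site was in the promoter table for 33 of the 38 genes (RefSeq, GRCh38.p14), the others being FDFT1, FASN, ACAT2, SQLE and FABP5. The 250 upstream bases are printed for 6 of them in the direction of transcription. They are HMGCS1 (chr5:43313413-43313662, minus strand), MVK (chr12:109573544-109573793, plus strand), DHCR7 (chr11:71448394-71448643, minus strand), TM7SF2 (chr11:65111622-65111871, plus strand), LBR (chr1:225428822-225429071, minus strand) and SREBF2 (chr22:41832855-41833104, plus strand). Capitals mark matches to the NF-Y box CCAAT on either strand, so that ATTGG is the box on the other strand, and in SREBF2 also the SREBP element.
HMGCS1: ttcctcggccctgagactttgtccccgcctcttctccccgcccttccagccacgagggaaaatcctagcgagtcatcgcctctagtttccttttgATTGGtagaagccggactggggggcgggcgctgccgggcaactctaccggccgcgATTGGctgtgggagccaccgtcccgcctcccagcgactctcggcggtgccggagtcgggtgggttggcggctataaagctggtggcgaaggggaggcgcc
MVK: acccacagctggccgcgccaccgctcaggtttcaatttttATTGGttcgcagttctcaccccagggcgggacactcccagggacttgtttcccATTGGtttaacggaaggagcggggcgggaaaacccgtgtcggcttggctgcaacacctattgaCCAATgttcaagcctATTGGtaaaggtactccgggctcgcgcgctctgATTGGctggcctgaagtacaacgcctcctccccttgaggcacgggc
DHCR7: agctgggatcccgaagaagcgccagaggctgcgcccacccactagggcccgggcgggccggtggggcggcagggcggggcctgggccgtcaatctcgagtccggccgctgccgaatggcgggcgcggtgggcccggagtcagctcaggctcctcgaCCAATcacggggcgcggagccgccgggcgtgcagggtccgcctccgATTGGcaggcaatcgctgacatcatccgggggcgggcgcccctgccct
TM7SF2: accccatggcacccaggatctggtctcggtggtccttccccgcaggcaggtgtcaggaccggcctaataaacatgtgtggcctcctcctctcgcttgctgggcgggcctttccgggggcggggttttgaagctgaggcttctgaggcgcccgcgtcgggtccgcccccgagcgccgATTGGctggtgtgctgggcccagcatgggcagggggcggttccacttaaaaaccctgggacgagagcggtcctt
LBR: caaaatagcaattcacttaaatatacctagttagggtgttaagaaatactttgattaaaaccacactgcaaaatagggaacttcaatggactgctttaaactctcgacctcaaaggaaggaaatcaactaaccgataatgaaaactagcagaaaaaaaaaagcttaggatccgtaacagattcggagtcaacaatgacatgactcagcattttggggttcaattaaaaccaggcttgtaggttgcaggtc
SREBF2: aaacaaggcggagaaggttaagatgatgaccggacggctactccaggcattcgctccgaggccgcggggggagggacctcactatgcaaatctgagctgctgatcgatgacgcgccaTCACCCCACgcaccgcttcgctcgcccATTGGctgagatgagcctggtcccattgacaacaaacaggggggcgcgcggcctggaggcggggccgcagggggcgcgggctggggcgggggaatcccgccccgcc
HMGCS1 and DHCR7 each hold 2 NF-Y boxes, MVK holds 5, TM7SF2 holds 1 and the printed bases of LBR hold none. The 6 printed genes were picked with the results known and do not stand for the 33 windows. CYP51A1, which fell in 697, holds no box, and NSDHL, which was not called there, holds 5. SREBF2 holds 1 NF-Y box and, starting 133 bases before the start site, the only match to the SREBP element TCACNCCAC among the 33 windows. That motif was present in 3.03% of the windows of these genes, against 1.1% of the 10275 windows of all genes tested. The NF-Y box occurred in 21 of the 33 windows, or 63.6%, against 36.8% of the windows of all genes tested. By branch, it was in 9 of 11 sterol windows, 4 of 7 mevalonate windows, 4 of 9 fatty acid windows, 2 of 4 regulator windows and 2 of 2 transport windows. The SP1 box GGGCGG was in 87.9% of the windows, against 69.4% for all genes tested, and the E-box CACGTG in 12.1%, against 10.1%. All 4 motifs were searched on both strands in the whole 300-base window, and a match is a description of the letters and not of a bound site.

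In 697, genes of all 5 branches were lower in the edited clone. Of the 38 genes, 27 fell, by 15.2% to 39.4%, and 0 rose, while 4.60% of all genes tested fell and 4.85% rose. At an unadjusted p under 0.05 by the same edgeR test 0 were higher, and DESeq2 also called 0 higher. Their median log2 fold change was -0.33, against 0 over all genes tested, and 36 of 38 lay below 0. The remaining 2 were GGPS1 (0.01) and LBR (0.07). In 30 of the 38, all 3 edited libraries lay below all 3 control libraries, a separation in that direction seen in 11.6% of all genes tested. The plot of changes by gene shows both lines side by side.

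**Figure D1:**
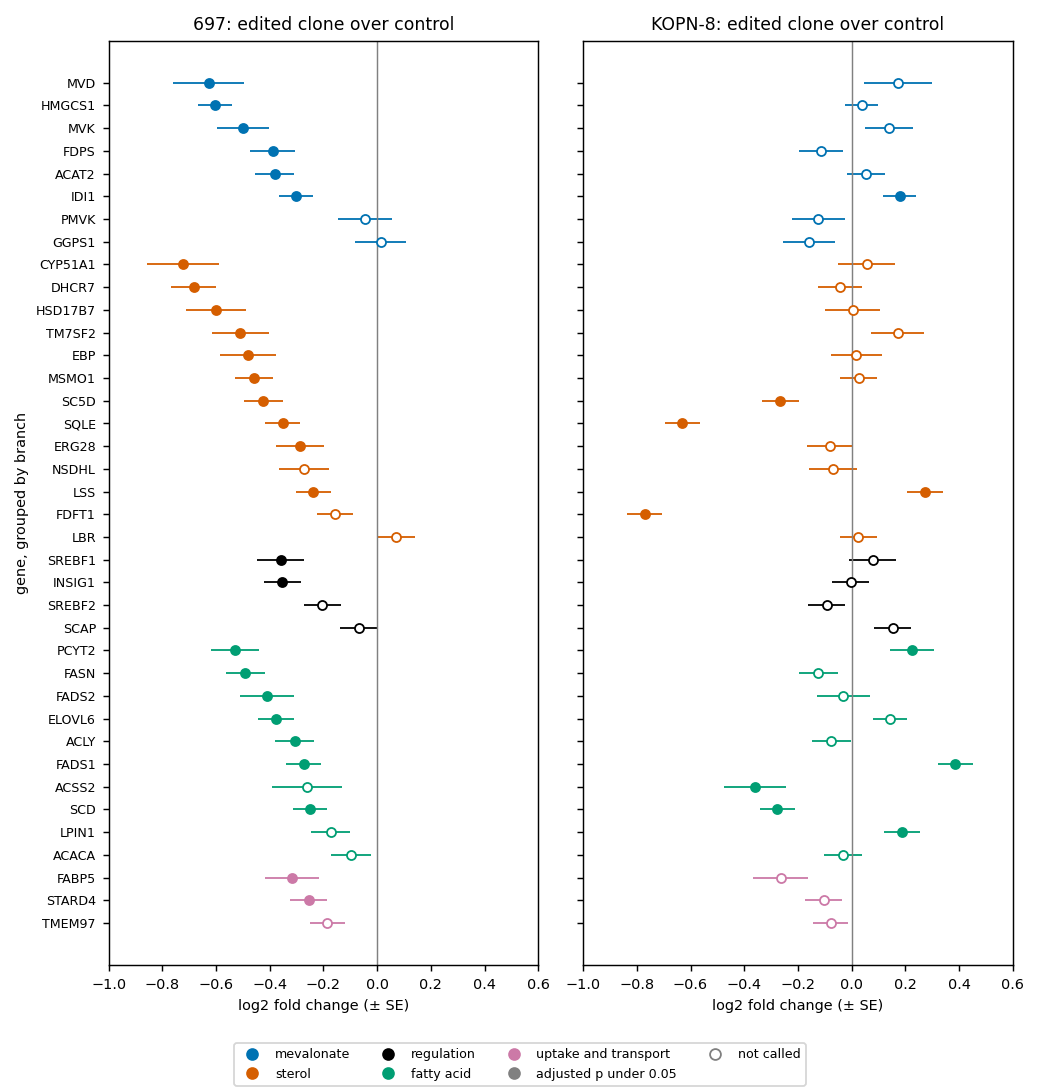
Log2 fold change of each of the 38 genes in the edited clone over its control, in 697 (left) and KOPN-8 (right), with bars of 1 SE, genes grouped by branch and ordered by their 697 value. Filled points passed an adjusted p of 0.05; in 697 all 27 filled points lie left of 0, and in KOPN-8 5 lie on each side.

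In the mevalonate branch 6 of 8 genes fell, with a median log2 fold change of -0.39 over the 8. HMGCS1, the synthase that makes HMG-CoA, measured 317, 340.3 and 330.3 CPM in edited 697 cells, against 481, 508 and 511 CPM in control 697 cells. Its log2 fold change of -0.60 (SE 0.0628, adjusted p = 2.44e-07, edgeR's quasi-likelihood test with Benjamini-Hochberg adjustment, as for every adjusted p below) had the smallest p-value among the 38. The groups lay far apart, the highest edited library being well under the lowest control library. MVK, the kinase that phosphorylates mevalonate, measured 23.1, 27.3 and 24.8 CPM in edited cells, against 30.0, 39.2 and 37.2 CPM in control cells (log2 fold change -0.50, adjusted p = 0.00105). MVD, the decarboxylase that follows, measured 46.4, 50.4 and 46.8 CPM in edited cells, against 54.99, 90.8 and 76.1 CPM in control cells (-0.63, adjusted p = 0.00601). For both kinase and decarboxylase the first control replicate was the lowest control library and still lay above every edited one. ACAT2, the cytosolic thiolase that joins acetyl-CoA units, measured 95.2, 100.04 and 97.9 CPM in edited cells, against 113, 139 and 129.9 CPM in control cells (-0.38, adjusted p = 0.00108). IDI1, the isopentenyl diphosphate isomerase, measured 228, 228 and 244 CPM in edited cells, against 272, 297 and 295 CPM in control cells (-0.30, adjusted p = 0.00239). FDPS, which makes farnesyl diphosphate, measured 269, 297 and 269.7 CPM in edited cells, against 305, 402 and 387 CPM in control cells (-0.39, adjusted p = 0.00289). All 3 were separated without overlap, with FDPS showing the widest control spread. FDPS has 8 pseudogenes named after it, so some of its reads could have been split among copies. The genes that were not called were PMVK, the phosphomevalonate kinase (-0.04, 95% interval -0.25 to 0.16), and GGPS1, which makes geranylgeranyl diphosphate for protein prenylation and not for sterols (0.01, interval -0.18 to 0.21).

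In the sterol branch 10 of 13 genes fell, with a median of -0.42. CYP51A1, the demethylase that removes the 14-alpha methyl group of lanosterol, had the lowest log2 fold change of the 38 and measured 6.25, 7.66 and 7.21 CPM in edited 697 cells, against 10.4, 13.7 and 10.6 CPM in control 697 cells (log2 fold change -0.72, SE 0.134, adjusted p = 0.000654). Its counts may be incomplete, because GENCODE 29 places 2 further protein-coding models over it on the same strand. DHCR7, the reductase of the last step to cholesterol, measured 90.5, 100.04 and 84.4 CPM in edited cells, against 131, 170.3 and 141 CPM in control cells (-0.68, SE 0.0840, adjusted p = 3.29e-06). MSMO1, the C4-methyl sterol oxidase, measured 73.6, 79.0 and 91.2 CPM in edited cells, against 109, 116 and 109 CPM in control cells (-0.46, adjusted p = 0.000103). These steps lie in the middle and at the end of the branch, and none of their groups overlapped. SC5D, the sterol C5-desaturase, measured 49.8, 50.8 and 57.0 CPM in edited cells, against 72.7, 67.8 and 70.7 CPM in control cells (-0.42, adjusted p = 0.000251). SQLE, the squalene epoxidase that opens the oxygen-dependent part of the route, measured 183, 194 and 181 CPM in edited cells, against 239, 255 and 219.6 CPM in control cells (-0.35, adjusted p = 0.000628). LSS, which closes the sterol rings, measured 111, 121 and 108 CPM in edited cells, against 134, 134 and 133 CPM in control cells (-0.24, adjusted p = 0.0189). LSS had the narrowest control spread of all 38 genes, with a coefficient of variation of 0.505% in control 697 cells. The other genes that fell were HSD17B7, a 3-ketosteroid reductase (-0.60), EBP, the sterol isomerase (-0.48), TM7SF2 (-0.51) and ERG28, a scaffold of the demethylation complex (-0.29). The LSS call was lost without edited replicate 1 or 3 of 697 (adjusted p up to 0.0865), and that of ERG28 without any 1 of 10 libraries (up to 0.208).

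The reduction of the C14 double bond can be carried out by 2 proteins, TM7SF2 and LBR, of which LBR is also the lamin B receptor of the inner nuclear membrane. LBR was singled out after its values had been seen. TM7SF2 measured 17.8, 20.6 and 18.7 CPM in edited 697 cells, against 25.6, 31.7 and 23.8 CPM in control 697 cells (-0.51, SE 0.106, adjusted p = 0.00221). LBR measured 464, 427 and 475 CPM in edited 697 cells, against 439, 407 and 454 CPM in control 697 cells (0.07, interval -0.07 to 0.21, adjusted p = 0.596). The TM7SF2 groups were apart and the LBR groups overlapped; the difference between the genes was not tested. TM7SF2 shares its strand and part of its span with VPS51. FDFT1, the squalene synthase, and NSDHL, the C4 decarboxylase, were separated between the groups and did not pass the test (-0.16, adjusted p = 0.153, and -0.27, adjusted p = 0.0654), whereas with the replicate number as a block they did (adjusted p = 0.0479 and 0.0335).

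Of the regulators, SREBF1 and INSIG1 fell. SREBF1 encodes SREBP-1, which mainly drives fatty acid genes, and measured 209.9, 233 and 221 CPM in edited 697 cells, against 245, 309 and 297 CPM in control 697 cells (log2 fold change -0.36, adjusted p = 0.00849). INSIG1, the retention protein and itself a target of SREBPs, measured 218, 245 and 236 CPM in edited cells, against 274, 327 and 293 CPM in control cells (-0.35, adjusted p = 0.00132). Both genes were separated between the groups. SREBF2, which encodes SREBP-2, the main driver of the cholesterol genes, was also lower in every edited library than in any control library but did not pass the test (-0.20, adjusted p = 0.0645). It did pass with the replicate number as a block (-0.20, adjusted p = 0.0109), with DESeq2, and without control replicate 1 or control replicate 3 of 697. Over all alternatives its adjusted p ran between 0.0109 and 0.322. SCAP, the escort of both factors, had overlapping groups (-0.07, interval -0.21 to 0.07). The SREBF1 call was lost without control replicate 2 or without control replicate 3 of 697, with an adjusted p of up to 0.0518.

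In the fatty acid branch 7 of 10 genes fell, with a median of -0.29. FASN, the fatty acid synthase, measured 438, 426 and 404 CPM in edited 697 cells, against 554, 638 and 593 CPM in control 697 cells (log2 fold change -0.49, SE 0.0732, adjusted p = 4.88e-05). PCYT2, which activates ethanolamine for phospholipid synthesis, measured 41.5, 43.9 and 40.1 CPM in edited cells, against 52.2, 70.1 and 59.0 CPM in control cells (-0.53, adjusted p = 0.000213). ELOVL6, the elongase of saturated and monounsaturated chains, measured 68.5, 62.1 and 64.4 CPM in edited cells, against 82.0, 86.2 and 85.3 CPM in control cells (-0.38, adjusted p = 0.000369). The separation was complete for the synthase, the elongase and the phospholipid enzyme. ACLY, which makes cytosolic acetyl-CoA from citrate, measured 533, 552 and 493 CPM in edited cells, against 609.7, 704 and 639 CPM in control cells (-0.31, adjusted p = 0.00643). FADS1, the delta-5 desaturase, measured 431, 456 and 439 CPM in edited cells, against 502, 581 and 519 CPM in control cells (-0.27, adjusted p = 0.00774). SCD, the delta-9 desaturase, measured 898, 982 and 883 CPM in edited cells, against 1063, 1128 and 1093 CPM in control cells (-0.25, adjusted p = 0.0129). Each of these also lay lower in all edited libraries. FADS2, the delta-6 desaturase, passed the test although its groups overlapped (-0.41, adjusted p = 0.0104). It overlaps FADS1 on the opposite strand, and whether the counting used strand is not stated. FEN1, another protein-coding gene, overlaps FADS2 on the same strand. ACSS2 and ACACA, which make acetyl-CoA from acetate and malonyl-CoA from acetyl-CoA, and LPIN1, a phosphatidate phosphatase, were not called (-0.26, -0.10 and -0.17). Of the carriers, STARD4, which moves sterol between membranes, measured 109, 121 and 122 CPM in edited cells, against 132, 142 and 146 CPM in control cells (-0.26, adjusted p = 0.019). FABP5, a fatty acid binding protein, measured 83.1, 77.6 and 56.2 CPM in edited cells, against 89.9, 86.4 and 95.2 CPM in control cells (-0.32, adjusted p = 0.0473). The edited FABP5 libraries had the widest spread of the 38 genes in that group, and 14 pseudogenes are named after FABP5. TMEM97, a sterol-binding protein of the endoplasmic reticulum, was separated between the groups without passing the test (-0.19, adjusted p = 0.0764), and passed with the replicate block (adjusted p = 0.0271) and with DESeq2. Over all alternatives its adjusted p ran between 0.0271 and 0.196. Single libraries of 697 decided the calls of SCD (without edited replicate 1 or control replicate 2, adjusted p up to 0.0581), FADS1 (control replicate 2, 0.0611), FADS2 (edited replicate 3, control replicate 2 or 3, up to 0.0723) and STARD4 (edited replicate 1 or control replicate 3, up to 0.112). The FABP5 call was lost without any 1 of 9 libraries (up to 0.245).

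**Figure D2:**
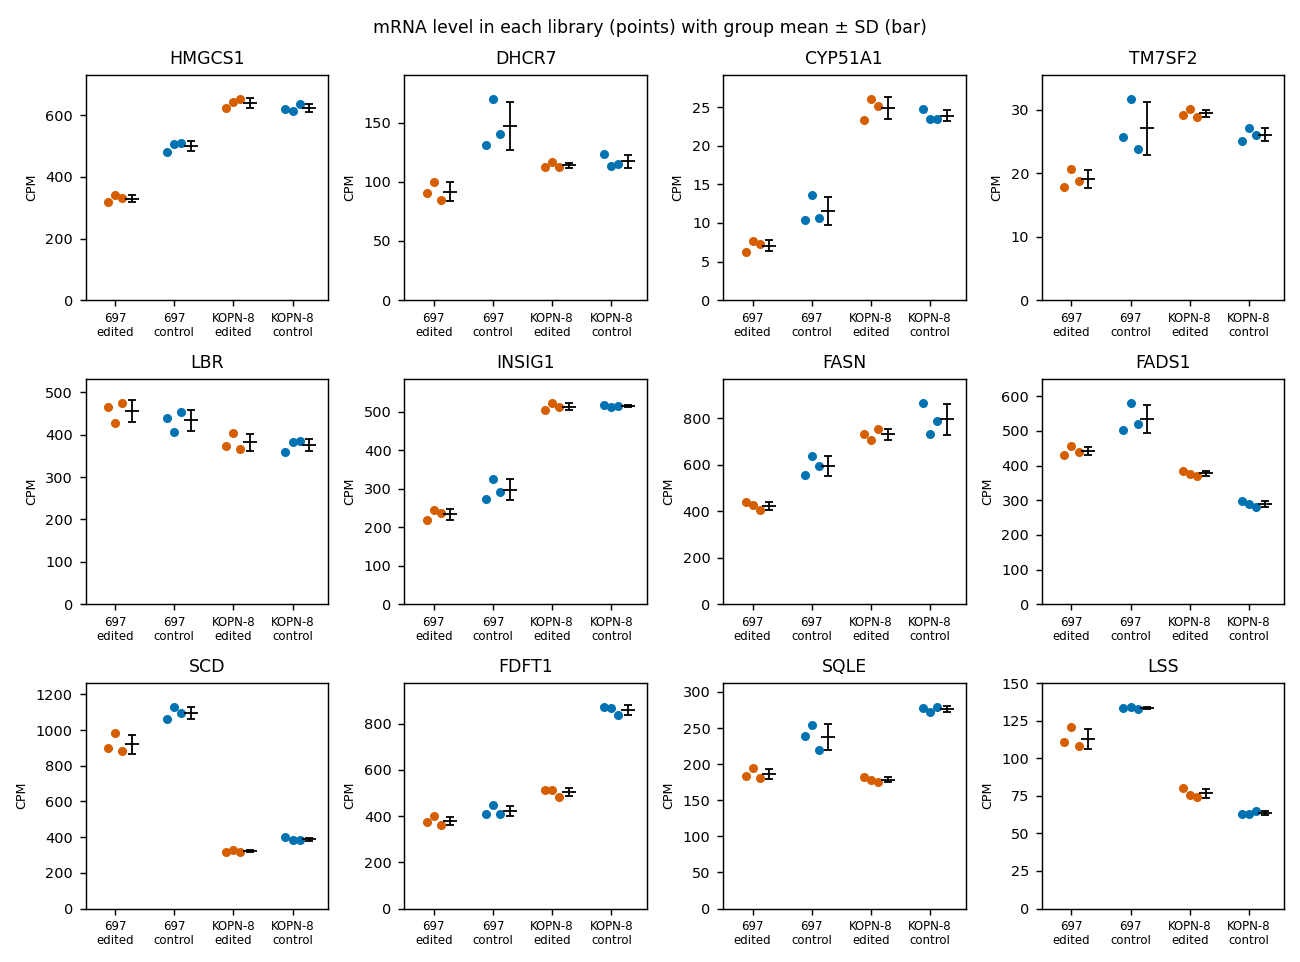
CPM of 12 of the genes in each of the 12 libraries (points), with group mean and SD (bars); every axis starts at 0. The 697 groups are apart for all but LBR, while FDFT1 and SQLE show the deepest falls in edited KOPN-8 cells and LSS and FADS1 are higher there.

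The lower levels in 697 were shared by all 3 edited libraries. The median deviation of the 38 genes from the mean of the 697 controls, on the log2 CPM scale, was -0.35, -0.28 and -0.34 in the edited libraries, against -0.07, 0.10 and -0.0017 in the control libraries. The controls were themselves spread: replicate 2 held the highest control value for 28 of the 38 genes and replicate 1 the lowest for 26. Among the edited libraries, replicate 2 held the highest value for 24. The median coefficient of variation over the 38 genes was 5.61% in edited and 7.60% in control 697 cells, and 3.14% in edited and 3.53% in control KOPN-8 cells. Without control replicate 2, 21 of the 38 genes fell and the median was -0.28, while the share of all genes called in either direction was 7.18%, against 9.45% with all libraries. With only the 6 libraries of the line in the fit, 20 fell and 7.19% of all genes were called. The calls lost were those of LSS, ERG28, SCD, FADS1, FADS2, STARD4 and FABP5. With the replicate number as a block, 31 fell and 15.2% of all genes were called, the added genes being FDFT1, NSDHL, SREBF2 and TMEM97.

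**Figure D3:**
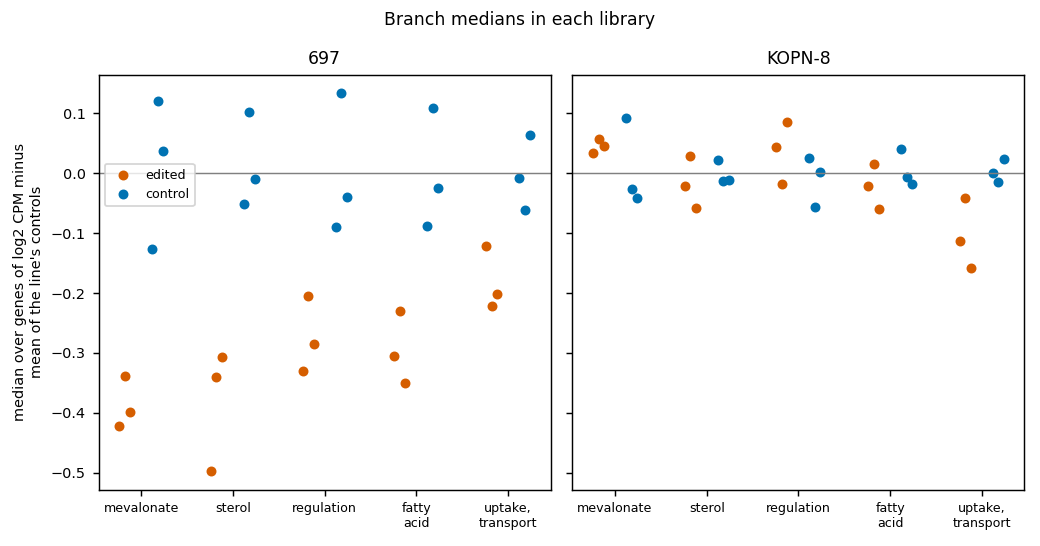
Median over the genes of each branch of log2 CPM minus the mean of the line's own controls, 1 point for each library, edited left of control. In 697 the edited points of every branch lie below the control points of that branch; in KOPN-8 the points mix, except that the edited transport points lie below their control points.

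The 697 changes of the genes with and without an NF-Y box in their window were set side by side. Of the 21 genes whose window holds the box, such as HMGCS1, MVK and DHCR7 printed above, 17 fell, with a median log2 fold change of -0.39. Of the 12 genes without it, 6 fell, with a median of -0.22. Among the 33 genes with a window, the 6 with the smallest falls or none, LPIN1, ACACA, SCAP, PMVK, GGPS1 and LBR, all lacked the box, but so did CYP51A1, whose fall was the deepest. That group of 6 was drawn from the ranked values. The next genes in the ranking, TMEM97 (-0.19, 3 boxes) and SREBF2 (-0.20, 1 box), hold the box and were not called in 697. NSDHL (5 boxes) and ACSS2 (1 box) were not called there either. Among the 495 windows of other genes that fell in 697, 34.9% held the box, close to the 36.8% of all genes tested. In KOPN-8 the median was -0.04 for the 21 genes with the box and 0.07 for the 12 without. These counts describe the 33 windows and were not tested.

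**Figure D4:**
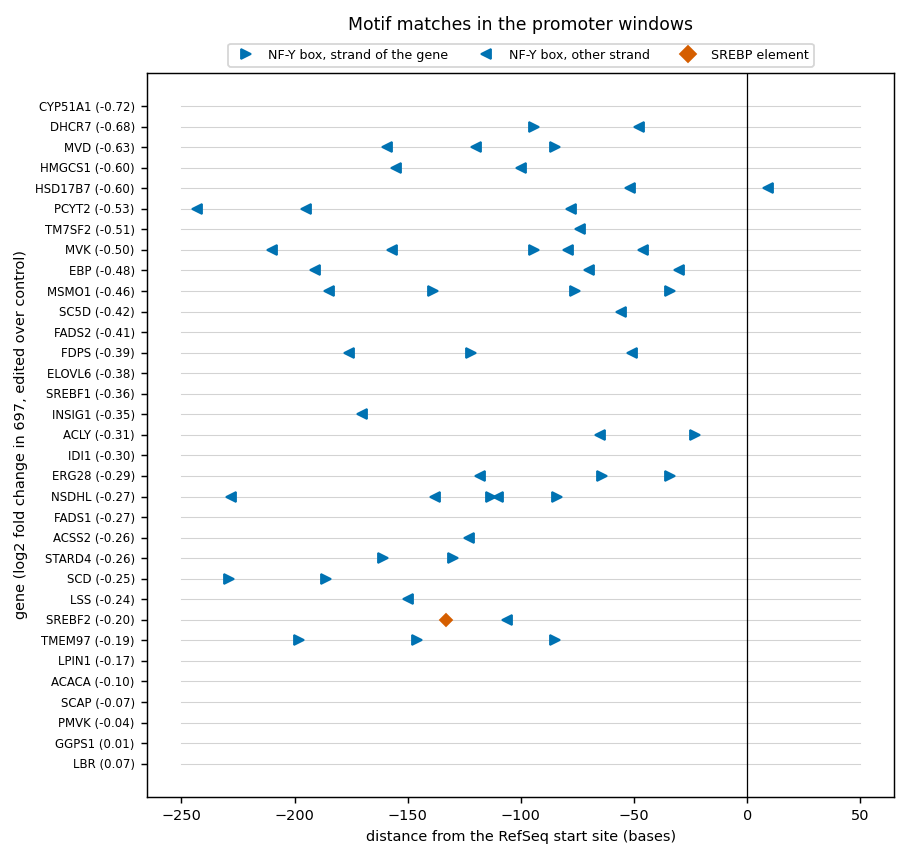
Position of NF-Y box matches (triangles, pointing along the strand of the match) and of the SREBP element (diamond) relative to the RefSeq start site in 33 windows, ordered by the log2 fold change in 697. The lowest 6 lines, from LPIN1 to LBR, hold no match, and MVK and NSDHL hold 5 each.

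In KOPN-8 the same genes did not move together. Of the 38, 5 rose and 5 fell in the edited clone, and 28 were not called. The 26.3% called compares with 28.7% of all genes tested, of which 11.5% rose and 17.2% fell, so that the share is close to that of the whole table. The median log2 fold change of the 38 genes was -0.02, against 0 over all genes tested. In each direction, 10 genes had groups without overlap, while 45.1% of all genes tested were separated, 20.4% upward and 24.7% downward. The mevalonate branch had 1 riser, the sterol branch 1 riser and 3 genes that fell, the fatty acid branch 3 risers and 2 genes that fell, and the regulators and carriers none of either. At an unadjusted p under 0.05 by the edgeR test, SCAP among the regulators (log2 fold change 0.15) and FABP5 among the carriers (-0.26) passed, and DESeq2 called 0 of the 7. With only the line's own libraries in the fit, SCAP and FABP5 were called, and so were MVD and ELOVL6 of the other branches.

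The deepest falls in KOPN-8 were those of FDFT1 and SQLE, both on chromosome 8. FDFT1, the enzyme that commits farnesyl diphosphate to sterols, measured 513, 512 and 485 CPM in edited KOPN-8 cells, against 872, 869 and 835 CPM in control KOPN-8 cells (log2 fold change -0.77, SE 0.0657, adjusted p = 1.89e-09). SQLE measured 182, 178 and 175 CPM in edited cells, against 278, 272 and 279 CPM in control cells (-0.63, SE 0.0644, adjusted p = 3.91e-08). FABP5, the other gene of the list on that chromosome, measured 42.3, 40.1 and 36.7 CPM in edited cells, against 47.7, 46.9 and 48.5 CPM in control cells and was not called (-0.26, adjusted p = 0.0612). It was called lower with TMM factors computed without chromosomes 8 and 13, without the filter, and with only the line's libraries. The same held without edited replicate 1 or edited replicate 3 of 697. Over all alternatives its adjusted p in KOPN-8 ran between 0.00579 and 0.215. All 518 tested genes of chromosome 8 had a median log2 fold change of -0.52 in KOPN-8, with 58.7% of them lower, and of 0.01 in 697. The part of this shift in the falls of FDFT1 and SQLE was not tested. Without the chromosome 8 genes, 5 rose and 3 fell of 35. Those 3 were SC5D, SCD and ACSS2. SC5D measured 59.2, 61.2 and 63.1 CPM in edited cells, against 74.6, 72.8 and 73.2 CPM in control cells (-0.27, adjusted p = 0.0054). SCD measured 319, 326 and 317 CPM in edited cells, against 398, 382 and 385 CPM in control cells (-0.28, adjusted p = 0.00202). Both desaturases were separated in both lines. ACSS2 measured 38.4, 37.1 and 32.4 CPM in edited cells, against 51.5, 46.0 and 41.0 CPM in control cells (-0.36, adjusted p = 0.0222).

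The 5 risers in KOPN-8 were led by FADS1 and LSS. FADS1 measured 385, 377 and 370.3 CPM in edited KOPN-8 cells, against 297, 288 and 281 CPM in control KOPN-8 cells (log2 fold change 0.39, SE 0.0660, adjusted p = 6.86e-05). LSS measured 80.1, 75.4 and 74.4 CPM in edited cells, against 62.9, 62.8 and 64.7 CPM in control cells (0.27, adjusted p = 0.00282). Every edited library exceeded every control library for both genes. IDI1 measured 341, 338 and 341 CPM in edited cells, against 312, 287 and 303 CPM in control cells (0.18, adjusted p = 0.0347). LPIN1 measured 225, 216 and 221 CPM in edited cells, against 201, 196 and 184 CPM in control cells (0.19, adjusted p = 0.0428). PCYT2 measured 91.2, 86.9 and 91.6 CPM in edited cells, against 75.4, 75.0 and 80.6 CPM in control cells (0.22, adjusted p = 0.0453). These 3 genes also had separate groups, but LPIN1 and PCYT2 lost their calls when any of the 6 KOPN-8 libraries was left out and IDI1 when any of 5 was. All 3 also lost their calls with TMM factors computed without chromosomes 8 and 13, and PCYT2 with DESeq2. ACSS2 lost its call without edited replicate 3, control replicate 1 or control replicate 2 of KOPN-8, with an adjusted p of up to 0.132, whereas FADS1, LSS, SC5D, SCD, FDFT1 and SQLE kept theirs in every alternative run.

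For 21 of the 38 genes, the change in the edited clone differed between the lines when the difference was tested directly. With 1 edited clone in each line, a difference between the lines cannot be told apart from a difference between the clones. The change in KOPN-8 was above the change in 697 for 19 of the 38 genes and below it for 2, so that 55.3% were called, against 19.5% of all genes tested (7.46% above and 12.1% below). The median difference was 0.35 on the log2 scale, against -0.02 over all genes tested. By branch, the KOPN-8 change was above the 697 change for 5 of 8 mevalonate genes, 7 of 13 sterol genes, 2 of 4 regulators, 5 of 10 fatty acid genes and 0 of 3 carriers. The 2 genes with the KOPN-8 change below were FDFT1 (-0.61, adjusted p = 2.49e-05) and SQLE (-0.28, adjusted p = 0.0324), which are the chromosome 8 genes of the sterol branch. The SQLE difference was lost without any 1 of 8 libraries (adjusted p up to 0.146). Of the carriers, 0 passed at an unadjusted p under 0.05 and DESeq2 called 0.

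HMGCS1 shows the usual form of this difference. It measured 622, 643 and 654 CPM in edited KOPN-8 cells, against 619, 614 and 637 CPM in control KOPN-8 cells, a log2 fold change of 0.04, and the difference from the 697 change was 0.64 (SE 0.0882, adjusted p = 7.03e-06). DHCR7 measured 113, 116 and 113 CPM in edited KOPN-8 cells, against 123, 114 and 115 CPM in control KOPN-8 cells (change -0.04, difference 0.64, adjusted p = 0.00027). In both genes the KOPN-8 groups overlapped, while the 697 groups were far apart. MVK measured 48.0, 51.1 and 49.5 CPM in edited KOPN-8 cells, against 46.1, 44.6 and 44.2 CPM in control KOPN-8 cells, and was not called there (change 0.14, difference 0.64, adjusted p of the difference = 0.000856). TM7SF2 measured 29.2, 30.1 and 28.9 CPM in edited KOPN-8 cells, against 25.1, 27.1 and 26.0 CPM in control KOPN-8 cells (change 0.17, difference 0.68, adjusted p of the difference = 0.00131). MVD measured 87.7, 84.8 and 89.4 CPM in edited KOPN-8 cells, against 84.8, 71.6 and 76.4 CPM in control KOPN-8 cells (change 0.17, difference 0.80, adjusted p of the difference = 0.0051). These 3 had their edited KOPN-8 libraries at or above the controls without a call. With only the line's own libraries in the fit, MVD was called higher in KOPN-8. MSMO1 and ACAT2 had overlapping groups in KOPN-8, with levels of 167, 171 and 171 CPM in edited against 171, 164 and 165 CPM in control cells for MSMO1 (difference 0.48, adjusted p = 0.000942) and of 199, 199 and 193 CPM in edited against 202, 186 and 182 CPM in control cells for ACAT2 (difference 0.43, adjusted p = 0.00327).

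Among the regulators, INSIG1 measured 505, 523 and 511 CPM in edited KOPN-8 cells, against 518, 511 and 515 CPM in control KOPN-8 cells (change -0.0043, interval -0.15 to 0.14), and its difference between the lines was 0.35 (adjusted p = 0.0123). SREBF1 measured 174, 154 and 182 CPM in edited KOPN-8 cells, against 177, 146 and 161 CPM in control KOPN-8 cells (change 0.08, difference 0.44, adjusted p of the difference = 0.0131). Neither regulator was called within KOPN-8. ELOVL6 measured 122, 129.7 and 122 CPM in edited KOPN-8 cells, against 111, 113 and 114 CPM in control KOPN-8 cells (change 0.14, difference 0.52, adjusted p of the difference = 0.000168). Its KOPN-8 change was called higher with only the line's own libraries in the fit. FASN measured 733, 704 and 751 CPM in edited KOPN-8 cells, against 865, 733 and 788 CPM in control KOPN-8 cells (change -0.12, difference 0.37, adjusted p of the difference = 0.0123). FASN was thus below its control mean in KOPN-8 as in 697, though with overlapping groups, and its difference was lost without control replicate 2 of KOPN-8 (adjusted p = 0.0578). The difference of SREBF1 was also lost without that library (adjusted p = 0.0535).

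Gene by gene, 4 genes fell in 697 and rose in KOPN-8, namely FADS1, LSS, PCYT2 and IDI1, and each of them was also called for the difference between the lines. These are 10.5% of the 38, against 0.598% of all genes tested. The KOPN-8 rises of PCYT2 and IDI1 were not called with TMM factors computed without chromosomes 8 and 13. The 697 falls of FADS1 and LSS were not called with only that line's libraries in the fit. FADS1 also lost its 697 call without control replicate 2, and LSS without edited replicate 1 or 3. SC5D, SCD and SQLE fell in both lines, or 7.89%, against 1.09% of all genes tested. The 697 call of SCD was likewise lost with only that line's libraries. A further 20 fell in 697 and were not called in KOPN-8, or 52.6%, against 2.91% of all genes tested. These 3 shares also reflect that 71.1% of the 38 fell in 697, against 4.60% of all genes tested. Of the 27 genes of the list that fell in 697, 4 rose, 3 fell and 20 were not called in KOPN-8. Of all 700 tested genes that fell in 697, 91 rose, 166 fell and 443 were not called in KOPN-8. FDFT1 and ACSS2 fell in KOPN-8 and were not called in 697, or 5.26%, against 14.9% of all genes tested. LPIN1 rose in KOPN-8 and was not called in 697, or 2.63%, against 10.2% of all genes tested. The other 8 were called in neither line, or 21.1%, against 65.4% of all genes tested. For SC5D and SCD the difference between the lines was not called (0.16, interval -0.05 to 0.37, and -0.03, interval -0.22 to 0.16). The sign of the change was the same in both lines for 20 of the 38, or 52.6%, against 47.8% of all genes tested. Across the 38 genes, the changes in the lines had a Pearson correlation of -0.20 and a Spearman correlation of -0.27, against -0.01 and 0.00 over all genes tested; the lines have separate controls, the genes are not independent, and the values are a description.

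**Figure D5:**
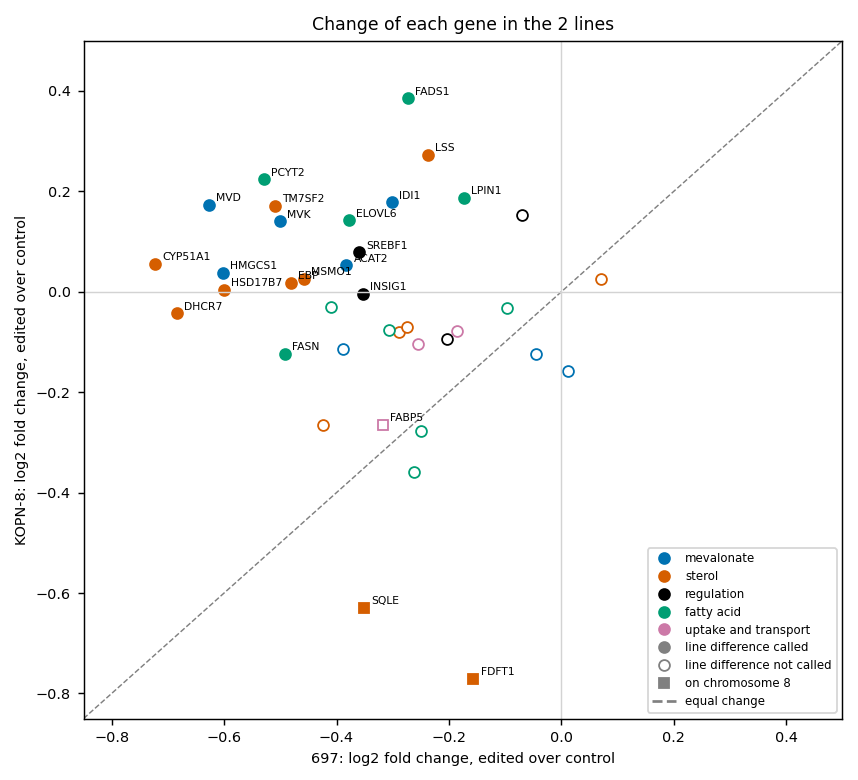
Log2 fold change in KOPN-8 against that in 697 for the 38 genes, both edited over control; filled symbols mark genes whose change differed between the lines, squares mark chromosome 8 and the dashed line marks equal change. Of the 21 filled symbols, 19 lie above the dashed line and FDFT1 and SQLE lie below it.

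The starting levels also differed between the lines, by about as often as for other genes. Between control KOPN-8 and control 697 cells, 17 of the 38 genes were higher in KOPN-8 and 11 lower, or 73.7%, against 73.3% of all genes tested (36.6% higher and 36.7% lower). SCD averaged 388 ± 8.78 CPM in control KOPN-8 cells and 1095 ± 32.6 CPM in control 697 cells (SD, n = 3 each; log2 difference -1.49). LSS (-1.07), FABP5 (-0.92), FADS1 (-0.89) and SREBF1 (-0.81) were also lower in control KOPN-8 cells. On the higher side, ACSS2 had a log2 difference of 1.06, CYP51A1 of 1.04, FDFT1 of 1.02, LPIN1 of 0.93 and INSIG1 of 0.79. The genes of the same branch thus stood on both sides, and HMGCS1 averaged 623 ± 12.4 CPM in control KOPN-8 cells and 500.1 ± 16.8 CPM in control 697 cells (SD, n = 3 each).

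The list leaves out further genes of lipid metabolism. Of 75 such genes, 63 passed the filter on low counts. In 697, 3 of the 63 rose and 6 fell, or 14.3%, against 9.45% of all genes tested. None of 10 isoprenoid genes, which use mevalonate products for dolichol, ubiquinone and protein prenylation, was called by edgeR in 697, and at an unadjusted p under 0.05 there were 2, FNTA and FNTB, the farnesyltransferase subunits. Among further sterol regulators, RNF145, a ubiquitin ligase, measured 82.6, 84.9 and 71.5 CPM in edited 697 cells, against 67.1, 56.9 and 60.1 CPM in control 697 cells (log2 fold change 0.38). HSD17B12, a reductase of fatty acid elongation, measured 234, 230.4 and 237 CPM in edited 697 cells, against 284, 287 and 297 CPM in control 697 cells (-0.31). HACD1, a dehydratase of the same cycle, also fell (-0.45), FADS3 rose (0.51), the phospholipid acyltransferase LPCAT3 fell (-0.31) and the glycerol-phosphate acyltransferase GPAM rose (0.32). The calls of FADS3 (without edited replicate 2), HACD1 (edited replicate 1, control replicate 2 or 3) and LPCAT3 (edited replicate 2, control replicate 2 or 3) were lost without single 697 libraries, with an adjusted p of up to 0.0836, and that of GPAM without any 1 of 8 libraries (up to 0.197). With only the 6 libraries of the line in the fit, FADS3, LPCAT3 and GPAM were not called.

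In KOPN-8, 7 of the 63 rose and 15 fell, or 34.9%, against 28.7% of all genes tested. DGAT2, which makes triacylglycerol, measured 0.371, 0.588 and 0.388 CPM in edited KOPN-8 cells, against 3.86, 4.02 and 4.40 CPM in control KOPN-8 cells (log2 fold change -3.21, adjusted p = 4.90e-10), levels near the 3-count floor in the edited cells. HACD1 fell there as well, to 1.38, 1.18 and 1.39 CPM in edited KOPN-8 cells, against 4.38, 4.54 and 3.04 CPM in control KOPN-8 cells (-1.57). ACSL1, an acyl-CoA synthetase, measured 426, 337 and 301 CPM in edited KOPN-8 cells, against 644, 653 and 637 CPM in control KOPN-8 cells (-0.86). AGPAT3, a phospholipid acyltransferase, fell by 1.03 on the log2 scale, while FADS3 rose (0.59) as it had in 697. The other genes named by the rule in KOPN-8, ERLIN2 (-1.12), TRIB1 (-1.22), RNF139 (-0.47), FNTA (-0.55) and GPAT4 (-0.61), are on chromosome 8, whose genes as a whole were lower, while DGAT2, HACD1, ACSL1, AGPAT3 and FADS3 are on other chromosomes.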

How the data were processed

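Poly-A selected, stranded RNA-seq libraries of 12 samples were analysed, per the labels' protocols. The authors deposited a table of raw counts per gene and a table of normalized signal, which equals those counts divided by 1 factor per library; the submitters' processing notes name hg19, Trimmomatic, STAR and DESeq2, and no source used here gives their versions, the read counter or its use of strand. All sample columns were used (unused columns: 0), and no count row lacked a gene name. Groups followed the labels. Counts of the 15218 genes kept by edgeR's filterByExpr were tested with edgeR 4.0.16 (R 4.3.3, limma 3.58.1) by its quasi-likelihood test with TMM factors, 1 mean per group over all 12 libraries and Benjamini-Hochberg adjustment over all genes tested; a gene was called, and said to rise or fall, at an adjusted p under 0.05. Intervals are 95% intervals of the log2 fold change. The procedure was tested on simulated data. These held independent libraries, without clone effects or deviations shared by replicate number, and do not bear on either. The least covered of the 38 genes averaged 267 counts per library over the 12 libraries.

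Libraries of 1 group differed beyond counting noise (chi-square per degree of freedom 2.91 to 10.7), so each counted as 1 sample. The labels number the replicates in every group without saying what a number shares. Libraries of the same number deviated together in 697, with correlations of their deviations from the group means of 0.105, 0.207 and 0.104 across genes, all over the 0.1 taken as pairing, and not in KOPN-8 (0.0508, 0.0362 and 0.0743).

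The genes, the lists and the alternatives were chosen with earlier results of these data known. Values of every library are given for called genes, up to 5 per branch and comparison by p (in 697 also for LSS, MVD, TM7SF2 and SCD, which another comparison named); of further lists, up to 3 called genes per line are named by p, except for a gene that is not reported here. Overlapping genes and pseudogenes were read from GENCODE 29, and promoters from RefSeq, GRCh38.p14. Alternatives were DESeq2 1.42.0, RLE, upper-quartile and the authors' factors, TMM without chromosomes 8 and 13, no filter, the line's own libraries, a replicate block and each library left out.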

Additional observations from a re-analysis of the deposited data

Results flagged for a closer look

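The change in the edited clone differed between KOPN-8 and 697 for 21 of the 38 genes, tested as the difference of the changes with edgeR's quasi-likelihood test and Benjamini-Hochberg adjustment over all genes. The values are the KOPN-8 change minus the 697 change on the log2 scale, edited over control in each line. Each line has 1 edited clone, so a difference between lines cannot be told apart from a difference between clones. In the mevalonate branch the difference was 0.80 for MVD, 0.64 for HMGCS1, 0.64 for MVK, 0.48 for IDI1 and 0.43 for ACAT2. In the sterol branch it was 0.78 for CYP51A1, 0.68 for TM7SF2, 0.64 for DHCR7, 0.60 for HSD17B7, 0.51 for LSS, 0.50 for EBP and 0.48 for MSMO1, and on the other side -0.61 for FDFT1 and -0.28 for SQLE. Among the regulators it was 0.44 for SREBF1 and 0.35 for INSIG1. In the fatty acid branch it was 0.75 for PCYT2, 0.66 for FADS1, 0.52 for ELOVL6, 0.37 for FASN and 0.36 for LPIN1. The largest adjusted p among the 21 was that of SQLE, 0.0324, and the smallest that of HMGCS1, 7.03e-06.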

How the results depend on the processing

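None of the 38 genes reversed a call under any alternative, and 0 of them rose in 697 under any. The named genes of the further lists, recomputed under the same alternatives after the data had been seen, reversed no call either. The count that fell in 697 lay between 20, with only the line's libraries, and 31, with the replicate block, and was 29 with DESeq2. Leaving out 1 library at a time gave 21 to 27. ERG28 lost its 697 call without any of 10 single libraries and FABP5 without any of 9. In KOPN-8 the count that rose was 2 with TMM factors computed without chromosomes 8 and 13, 8 with only the line's libraries, and 2 to 5 with single libraries left out, while the count that fell was 4 to 6. For the difference between the lines, the count with the KOPN-8 change above was 17 to 22 over all alternatives, and the count below was 1 without the filter and 1 to 2 with single libraries left out, SQLE being the gene lost. Between the controls, upper-quartile factors gave 16 higher and 14 lower, with the median of all genes moved to -0.10. The SETD2 values, recomputed under the same alternatives after the data had been seen, ran in 697 between 0.37 and 0.48 and in KOPN-8 between -0.14 and -0.07.

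With the replicate number as a block, 31 genes fell in 697, 5 rose and 5 fell in KOPN-8, and the difference between the lines had 22 above and 2 below, the additions being FDPS, ACLY and FADS2 (adjusted p = 0.0230, 0.0349 and 0.00137). The block changed no other call. The numbers did not pair the KOPN-8 libraries. The cause of these changes was not tested.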
